A study of Mus musculus with 8 samples.

Results

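The cells described here were chosen for RNA of platelets and of the megakaryocytes that shed them, in a single-cell RNA-seq table of dissociated erythroblastic islands from mouse bone marrow and spleen. A cell was a member when it held at least 5 UMIs (unique molecular identifiers, one per captured RNA molecule) of Pf4, at least 2 of Itga2b and Ppbp together, and at most 2 of the macrophage genes C1qa, C1qb and C1qc together. This rule found 699 of 24942 cells, or 2.80% (exact 95% interval 2.60 to 3.01). Of these, 506 had 3000 UMIs or more (large members, 2.03% of all cells) and 193 had fewer (small members, 0.774%). Members were thus chosen by their measured Pf4, Ppbp, Itga2b and C1q counts and by depth, and the levels of those genes are given only as a description of the choice. A group of 259 large members, most of which held little other platelet RNA, is described apart.

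All mice were male and lupus-prone Sle1.Yaa, a strain that combines the Sle1 susceptibility interval with the Y-linked autoimmune accelerator Yaa. Islands came from animals that also carried a human TLR8 transgene (Sle1.Yaa.huTLR8tg, labelled anemic; 2 bone marrow and 2 spleen libraries) and from Sle1.Yaa controls without it (labelled non-anemic; 3 bone marrow libraries and 1 spleen library), with no treatment and no stated age. Islands were taken from BSA gradients and separated into single cells with EDTA and mild mechanical force, and no source used here gives the promoter that drives the transgene. The deposited table names cells by barcode only and holds no map from cell to library, so transgenic and control animals could not be compared, and the whole table counts as 1 pooled sample with no test and no p-value. Every value therefore mixes cells of both genotypes.

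Megakaryocytes grow by repeated DNA replication without cell division and then release platelets, fragments with no nucleus that keep the RNA packed into them. That RNA codes for the cargo of alpha granules, for the surface receptors that hold a platelet to collagen, von Willebrand factor and fibrinogen, and for a cytoskeleton that allows rapid shape change. In bone marrow and mouse spleen, megakaryocytes lie among the erythroblasts with which they share a progenitor, and platelets adhere readily to other cells during tissue dissociation.

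The barcodes formed 8 alphabetical runs, each taken as an unnamed library, with 447 to 6787 cells and median depths of 3511.5 to 11661 UMIs per cell. Run 6 held 458 of the 506 large members and 96 of the 193 small members. Large members were 6.75% of the cells of run 6 (6.16 to 7.37), against 0 to 0.803% in the other 7 runs, so nearly every value for large members is a value of 1 library. Small members were spread more evenly, at 1.41% of run 6 and 0.138 to 1.43% of the other runs. Pf4 was also widespread outside the members of run 6: 81.8% of all its cells had a Pf4 UMI, against 2.68 to 33.3% in the other runs, and its non-member cells held 323 Pf4 UMIs per 1000000 UMIs (CPM), against 1.45 to 43.9 CPM. Within run 6, Pf4 stood at 267 CPM in cells rich in neutrophil RNA, 266 CPM in cells rich in immunoglobulin RNA and 343 CPM in cells rich in globin RNA, 3 classes that should lack it. A low Pf4 count in a large cell of run 6 therefore did not set that cell apart from its neighbours. Of the members, 25 carried a barcode that also occurred in another run.

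**Figure D1:**
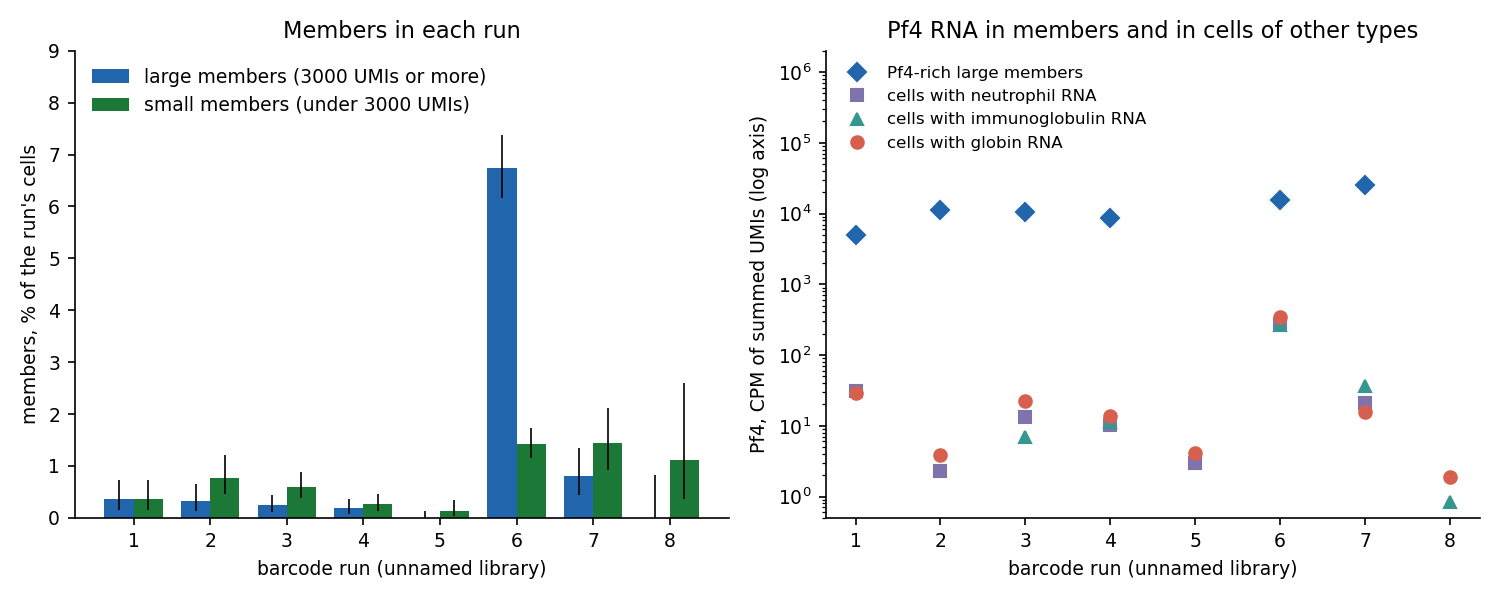
Left, members as a percentage of the cells of each of the 8 barcode runs, large and small members apart, with exact 95% binomial intervals. Right, Pf4 in CPM (log axis) by run in Pf4-rich large members (runs with at least 3 such cells) and in cells rich in neutrophil, immunoglobulin or globin RNA. Run 6 stands apart in its large members (6.75%) and in the Pf4 of cells of other classes (266 to 343 CPM).

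The label was checked on 10 megakaryocyte and platelet markers that the rule did not use (Gp9, Gp1bb, Gp1ba, Gp5, Gp6, Treml1, Tubb1, Itgb3, Clec1b and Myl9). Among small members these markers were high up to the edge of the rule: their sum was 5013 CPM in the 10 small members with 5 or 6 Pf4 UMIs, against 3931 CPM in the 19 small cells just outside with 3 or 4. With 2 UMIs of Itga2b plus Ppbp the sum was 2592 CPM in 28 small members, against 1431 CPM in the 44 small cells with 1 such UMI. Large cells at the edge were different. The sum was 127 CPM in the 158 large members with 5 or 6 Pf4 UMIs, against 114 CPM in the 367 large cells with 3 or 4, and 90.9 CPM in the 123 large members with 2 UMIs of Itga2b plus Ppbp, against 101 CPM in the 193 large cells with 1. At the Pf4 and Itga2b plus Ppbp limits, large members thus held about as little of the other markers as the large cells just outside.

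For this reason large members were also split by the share of their RNA that was Pf4, at 2000 CPM, a limit set after the data were seen. The 247 Pf4-rich large members had a median Pf4 of 12884 CPM and the 259 Pf4-poor large members a median of 382 CPM, close to the 323 CPM of the non-member cells of run 6. The sum of the 10 other markers was 6963 CPM in the 162 large members with 10000 CPM of Pf4 or more, and 160 of those cells held at least 3 UMIs of the markers. It was 89.5 CPM in the 164 large members under 500 CPM, of which 162 belonged to run 6. The boundary was not empty, since the 36 cells between 1000 and 2000 CPM of Pf4 held 2417 CPM of the markers and 67 large members had between 1000 and 5000 CPM. Markers of other classes moved with the split. Counted past fixed limits on erythroid, neutrophil, plasma cell or other markers were 18 Pf4-rich large members (7.29%) and 115 Pf4-poor ones (44.4%). Of 15374 large non-member cells with at most 1 Pf4 UMI, 79.1% passed such a limit, more than in either kind. The Pf4-poor count was mainly of 49 cells with neutrophil RNA, 39 with erythroid RNA and 23 with plasma cell RNA. Pf4-poor large members met the rule, but their RNA went against the label, and they are called by their rule throughout. The rule itself keeps the Pf4 share of small members high, because 5 UMIs are a large part of a small total: their lowest share was 1921 CPM, just under the limit, and their median 21898 CPM.

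**Figure D2:**
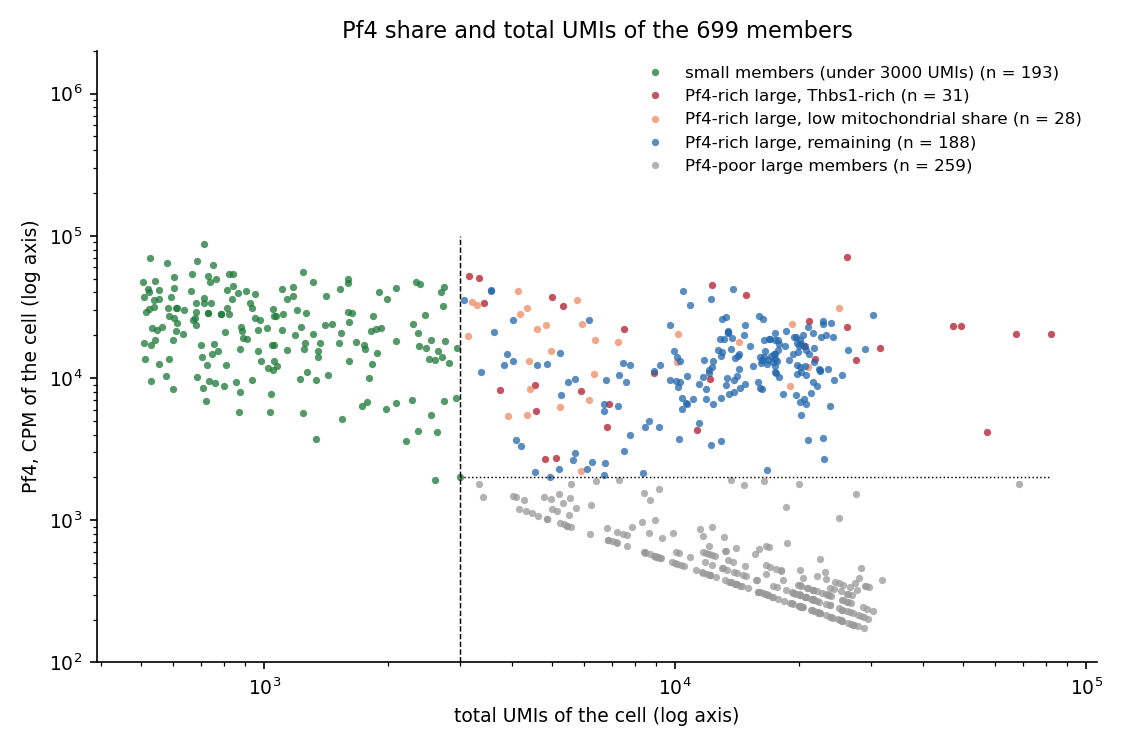
Pf4 in CPM against total UMIs for each of the 699 members, both on log axes, with the 3000 UMI split (dashed) and the 2000 CPM limit (dotted). Small members lie high on the left, and large members form an upper cloud with a median of 12884 CPM and a lower band with a median of 382 CPM.

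Start sites of 4 genes that were high in the members are shown first, because megakaryocyte genes are known to be driven by GATA and ETS family factors acting side by side. Of these, Pf4 and Itga2b were high by the choice of the members. Each line gives the 250 bases before the RefSeq start in GRCm38.p6, read in the direction of the gene, with capitals marking the GATA motif (written AGATAA or TGATAA) and the ETS motif (written CGGAAG or AGGAAG) on either strand. The windows are Pf4 at chr5:90772185-90772434 on the plus strand, Itga2b at chr11:102469884-102470133 on the minus strand, Gp1ba at chr11:70638872-70639121 on the plus strand and Clec1b at chr6:129397047-129397296 on the plus strand.
Pf4: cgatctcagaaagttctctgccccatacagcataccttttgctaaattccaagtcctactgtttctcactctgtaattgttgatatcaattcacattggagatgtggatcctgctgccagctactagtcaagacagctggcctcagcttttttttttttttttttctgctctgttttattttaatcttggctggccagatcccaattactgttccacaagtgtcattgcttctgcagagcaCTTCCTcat
Itga2b: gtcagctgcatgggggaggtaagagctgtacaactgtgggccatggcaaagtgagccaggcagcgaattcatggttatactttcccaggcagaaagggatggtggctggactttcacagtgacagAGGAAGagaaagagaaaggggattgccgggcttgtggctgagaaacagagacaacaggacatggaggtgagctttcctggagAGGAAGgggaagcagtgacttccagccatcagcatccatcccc
Gp1ba: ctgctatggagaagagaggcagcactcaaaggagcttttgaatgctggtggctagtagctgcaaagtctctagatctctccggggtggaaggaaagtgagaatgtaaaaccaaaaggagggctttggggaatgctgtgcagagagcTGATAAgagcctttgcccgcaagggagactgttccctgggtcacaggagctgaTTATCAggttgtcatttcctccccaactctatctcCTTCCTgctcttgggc
Clec1b: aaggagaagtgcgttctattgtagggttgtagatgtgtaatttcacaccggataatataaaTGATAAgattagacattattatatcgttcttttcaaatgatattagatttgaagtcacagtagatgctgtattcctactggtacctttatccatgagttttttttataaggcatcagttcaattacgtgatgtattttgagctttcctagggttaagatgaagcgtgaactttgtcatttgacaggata
Pf4 had a single ETS match 9 to 4 bases before its start, Itga2b had ETS matches at 125 to 120 and 43 to 38 bases, Gp1ba had GATA matches at 104 to 99 and 51 to 46 bases with an ETS match at 16 to 11, and Clec1b had a GATA match at 189 to 184. The windows of Ppbp and Treml1, searched in the same way and not shown, held neither motif. Also searched and not shown were Gp9, with an ETS match at 16 to 11 bases, Gp1bb, with an ETS match at 90 to 85, and Gp6, with a GATA match at 144 to 139. Across all 27025 RefSeq promoters, 17.0% held a GATA match and 39.0% an ETS match. Across the 13686 promoters matched to genes of the count table the shares were 11.1% and 44.4%. Of the adhesion receptor genes with a promoter, 5 of 18 held a GATA match and 9 of 18 an ETS match. Among genes higher in Pf4-rich large members than in other large cells, 9.80% of 357 promoters held a GATA match and 43.1% an ETS match, against 9.48% and 49.4% of the 2743 promoters of all genes compared, so these letters were no more frequent near the starts of the higher genes. The 4 genes lie at 5:90772435-90773383, 11:102453297-102470122, 11:70639122-70642036 and 6:129397297-129409335 in GENCODE M21, and Ppbp lies beside Pf4 at 5:90768518-90770063. For Itga2b the 2 annotations differ. Its GENCODE start, at 102470122, falls inside the window shown, so most of that window and its ETS matches lie within the GENCODE gene.

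In what follows, a gene counted as higher or lower when the ratio of summed UMIs, as log2 of CPM plus 10 and centred on the median gene, passed 2-fold and pointed the same way in all runs that held 10 or more cells of each group, among genes with 50 CPM or more in either group. Intervals on levels are exact Poisson 95% intervals and, like the binomial ones, cover counting error only. Other cells are non-members of the same size class with at most 1 Pf4 UMI. Pf4, Ppbp and Itga2b, which chose the members, were left out of the counts, medians and sums of the gene lists. A gene that is low in one group passes the 50 CPM minimum only through the other, so list counts and medians describe the measured genes and lean toward a difference.

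Small members were first set against 5023 other small cells, which match them in depth (median 977 against 1053 UMIs and 527 against 536 genes). Small members were led by platelet receptors, granule cargo and cytoskeleton, and low in MHC class II, immune and nuclear-retained RNA. Of 3570 genes compared, 373 were higher (10.4% of the genes compared) and 499 were lower (14.0%), over runs 2, 3, 4, 6 and 7. On plain totals the counts were 297 and 624. Cells with neutrophil RNA past the limit made up 24 of the 26 small members that passed a limit on another class, and the neutrophil markers summed to 0.376% of small-member UMIs with Cxcr2 at 0. The part of those cells in these results was not tested. Macrophage markers, which include the C1q genes that the rule caps, summed to 0.0076%, with Spic, Cd300e, Adgre1, Mertk and Axl at 0.

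Alpha granules carry the clotting and growth factors that a platelet releases. The alpha granule list had a summed share of 0.576% of UMIs in small members and 0.181% in other small cells, and of its 13 measured genes 5 were higher and 4 lower, with a median log2 difference of 2.49 (−1.01 to 5.06 over runs). Vwf, the factor that bridges platelets to collagen, stood at 537 CPM (448 to 639) in small members and 12.3 CPM (9.76 to 15.4) in other small cells, a log2 difference of 4.70. In the 5 runs with at least 10 small members it was 1293, 360, 84.3, 511 and 574 CPM, the third of these from a single UMI. Clu, a secreted chaperone, was at 943 and 23.2 CPM (log2 difference 4.93), Tgfb1, a cytokine stored in platelets, at 981 and 178 CPM (2.49), and F5, clotting factor V, at 372 and 9.52 CPM (4.38), each in small members and in other small cells. Thbs1, the matrix protein thrombospondin, had 753 CPM in small members and 35.6 CPM in other small cells but kept no common sign over the runs. Timp3, a metalloproteinase inhibitor outside the list, was at 719 and 12.9 CPM (5.07). The lower genes included Ccl5, a chemokine also made by T and NK cells, at 63.4 and 217 CPM (−1.54), of which 15 UMIs lay in 2 small members or about 1.04% of them. 

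Adhesion receptors showed the highest median of the lists. Of 22 measured genes 15 were higher and 1 lower, with a median log2 difference of 3.82 (2.97 to 5.59 over runs) and a summed share of 1.29% in small members and 0.181% in other small cells. Gp9, a subunit of the von Willebrand factor receptor, was at 1222 CPM (1085 to 1371) in small members and 11.9 CPM (9.34 to 14.8) in other small cells, a log2 difference of 5.90. By run, Gp9 was at 1552, 946, 590, 1108 and 2214 CPM in the small members of runs 2, 3, 4, 6 and 7. Every run was far above the pooled level of the other small cells. Its partner Gp5 was at 706 and 7.49 CPM (5.44), and Gp1ba, the subunit that binds the factor, at 224 and 1.25 CPM (4.47). Clec1b, the podoplanin receptor CLEC-2, was at 2084 CPM (1904 to 2277) and 21.8 CPM (log2 difference 6.13), with 1811, 1712, 843, 1992 and 2624 CPM in those runs. Treml1, a receptor kept in alpha granules until activation, was at 1247 and 13.3 CPM (5.84), and Itgb3, the partner chain of Itga2b in the fibrinogen receptor, at 1078 and 25.6 CPM (5.02). Fcer1g, the signalling chain of the collagen receptor Gp6 and of myeloid Fc receptors, did not differ by 2-fold, at 917 CPM in small members and 1274 CPM in other small cells.

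Receptors for soluble agonists were higher for 6 of 8 measured genes, with a median log2 difference of 2.73. F2rl2, the thrombin receptor PAR3, was at 423 CPM (344 to 514) in small members and 5.15 CPM in other small cells (4.92). P2rx1, an ATP-gated channel, was at 216 and 3.59 CPM but kept no common sign over the runs. Among genes that carry these signals to the integrins, 16 of 28 were higher and 2 lower (median 1.25). Rap1b, the small GTPase that switches integrins on, was at 2871 and 382 CPM (2.96), and Rasgrp2, its calcium-dependent activator, and Fermt3, the integrin-binding kindlin of blood cells, stood at 1564 and 1243 CPM in small members and at 90.6 and 113 CPM in other small cells.

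Cytoskeletal RNA took a large part of a small member. The list of 31 measured genes held 11.0% of UMIs in small members and 2.53% in other small cells, with 23 higher and 2 lower (median 2.61). Tmsb4x, which binds actin monomers, alone had 79348 CPM in small members and 18698 CPM in other small cells (2.17). Myl9, a myosin light chain, had the highest log2 difference named here, 6.52, from 1674 CPM (1513 to 1848) in small members and 9.52 CPM in other small cells. Myl9 was uneven, at 1035, 225, 0, 1841 and 3731 CPM in runs 2, 3, 4, 6 and 7, with no UMI in the 11 small members of run 4. Tpm2, a tropomyosin, was at 1484 and 14.7 CPM (6.01) and Tuba4a, an alpha tubulin, at 3386 and 307 CPM (3.51). Tubb1, the beta tubulin of the platelet marginal band, had only 14 UMIs (59.2 CPM) in small members and 2 UMIs in other small cells and fell short of the minimum for a call. Of 8 eicosanoid genes, 4 were higher (median 2.09), led by the lipoxygenase Alox12 at 731 and 6.55 CPM (5.57) and with the cyclooxygenase Ptgs1 at 237 and 18.7 CPM (3.19). Of 13 genes for dense granules and secretion, 5 were higher (median 1.46), among them Rab27b, which moves granules to the membrane, at 672 and 6.08 CPM (5.49).

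Transcription factors of the lineage moved less. Of 17 measured, 4 were higher and 1 lower (median 0.83). Gata1, the erythroid and megakaryocytic master factor, was at 148 CPM (103 to 206) in small members and 39.3 CPM in other small cells (1.77), and Fli1, an ETS factor of megakaryocytes, at 228 and 41.8 CPM (2.29). Nuclear-retained RNA went the other way: its summed share was 0.384% in small members and 2.13% in other small cells (median −2.38, −3.18 to −1.24 over runs). Malat1 was at 3628 CPM (3389 to 3879) in small members and 20148 CPM in other small cells (−2.38), and Neat1, another nuclear RNA, at 169 and 1014 CPM (−2.43). By run Malat1 was at 1707, 2973, 1940, 3409 and 9757 CPM in the small members of runs 2, 3, 4, 6 and 7. All of these were below the pooled level of the other small cells. Median Malat1 shares per cell were less even when set against other small cells of the same run. They were lower in small members in run 3 (0.159% and 1.15%), run 4 (0.107% and 0.451%) and run 6 (0.105% and 2.05%). In run 2 (0.125% and 0.0994%) and run 7 (0.489% and 0.385%) they were not. Mitochondrial genes were not called (0 of 12), nor were ribosomal protein genes (0 of 81, median −0.03), and of 16 cell division genes 3 were lower and none higher (−0.70). MHC class II genes were lower for 5 of 5 (median −4.37).

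Among large cells, all 506 large members were set against 15374 other large cells. Of 3218 genes compared over runs 3, 6 and 7, 197 were higher (6.12%) and 324 lower (10.1%). On plain totals, without centring, these counts were 393 and 193, because the median gene lay 0.57 higher on the log2 scale. With members past a limit on another class's markers left out they were 312 and 570, with run 6 alone left to check the sign. Without any sign check, all 506 large members gave 250 and 485. In run 6 alone the counts were 200 and 368, of which 161 and 182 were among the 197 and 324. Adhesion receptors were higher for 16 of 19 measured genes and lower for 1 (median 2.57), alpha granule cargo for 6 of 14 with 2 lower (1.09) and signalling genes for 14 of 25 with 1 lower (1.35). These values mix cells rich and poor in Pf4, so each kind is given apart. Run by run, Treml1 was at 89.4, 242, 282, 126, 436 and 629 CPM in the large members of runs 1, 2, 3, 4, 6 and 7, and Gp9 at 107, 171, 97.5, 126, 338 and 336 CPM.

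The 247 Pf4-rich large members, 222 of them from run 6, were high in platelet receptors of both kinds and mixed in alpha granule and eicosanoid genes. Against other large cells, 438 of 3434 genes were higher (12.8%) and 627 lower (18.3%), with the sign checked in run 6, the only run with enough cells. On plain totals, where the median gene lay 0.66 higher, the counts were 1119 and 384. Run 6 held 1947 of the 15374 other large cells. In run 6 alone 438 genes were higher and 545 lower, of which 363 and 431 were also called over all runs. Adhesion receptors were higher for 20 of 22 measured genes (median 2.98), with a summed share of 0.964% in Pf4-rich large members and 0.096% in other large cells. Fcer1g alone was lower, at 448 CPM in Pf4-rich large members and 594 CPM in other large cells (−1.06). Agonist receptors were higher for 7 of 7 (2.22), signalling genes for 16 of 29 with 2 lower (1.19), cytoskeletal genes for 20 of 32 with 2 lower (1.5) and eicosanoid genes for 4 of 8 with 3 lower (1.21). Alpha granule cargo was higher for 10 of 17 and lower for 6 (2.11), with 0.571% of UMIs in Pf4-rich large members and 0.170% in other large cells.

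Single genes gave the size of these differences, as averages over cells that were not uniform. Vwf stood at 982 CPM (950 to 1015) in Pf4-rich large members and 3.97 CPM in other large cells, a log2 difference of 5.49. Timp3 was at 965 and 1.95 CPM (5.69), Clec1b at 1126 and 2.84 CPM (5.80), Treml1 at 918 and 1.51 CPM (5.67), Itgb3 at 1375 and 7.83 CPM (5.62), and Cavin2, a caveola coat protein abundant in platelets, at 851 and 1.32 CPM (5.58), each in Pf4-rich large members and in other large cells. In the 6 runs that held Pf4-rich large members (4, 3, 9, 6, 222 and 3 cells in runs 1, 2, 3, 4, 6 and 7), Gp9 was at 231, 443, 116, 161, 731 and 2271 CPM. The few cells of runs 1 to 4 lay under the level of run 6 and the 3 cells of run 7 above it. Angpt1, a vascular growth factor stored in platelets, was at 225 and 5.67 CPM (3.24).

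Transcription factors were higher for 6 of 16 measured genes in Pf4-rich large members and lower for none (median 0.79). Meis1, a homeodomain factor, was at 113 CPM in Pf4-rich large members and 5.84 CPM in other large cells (2.30), Mef2c, a factor needed for normal platelet numbers in mice, at 690 and 85.3 CPM (2.21), and Gata2, a factor of progenitors and early megakaryocytes, at 122 and 13.3 CPM (1.83). Gata1 was not called, at 90.1 and 43.1 CPM (0.25), and neither was Runx1, a factor of early blood formation, at 191 and 59.8 CPM (0.87). Cell division genes were lower for 16 of 17 (median −1.66) and DNA replication genes for 8 of 15 (−1.04). Mki67, a marker of cycling cells, was at 372 CPM (352 to 393) and 881 CPM (−1.88). Cycling was not absent, since 83 of the 247 cells had 0.2% or more of their UMIs in the cell division list. That limit was also passed by 5620 of 15374 other large cells, a similar share. Ribosomal protein genes (median −0.10) and mitochondrial genes (0.00) lay near the median gene, and MHC class II genes were lower for 4 of 5 (−4.09).

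**Figure D3:**
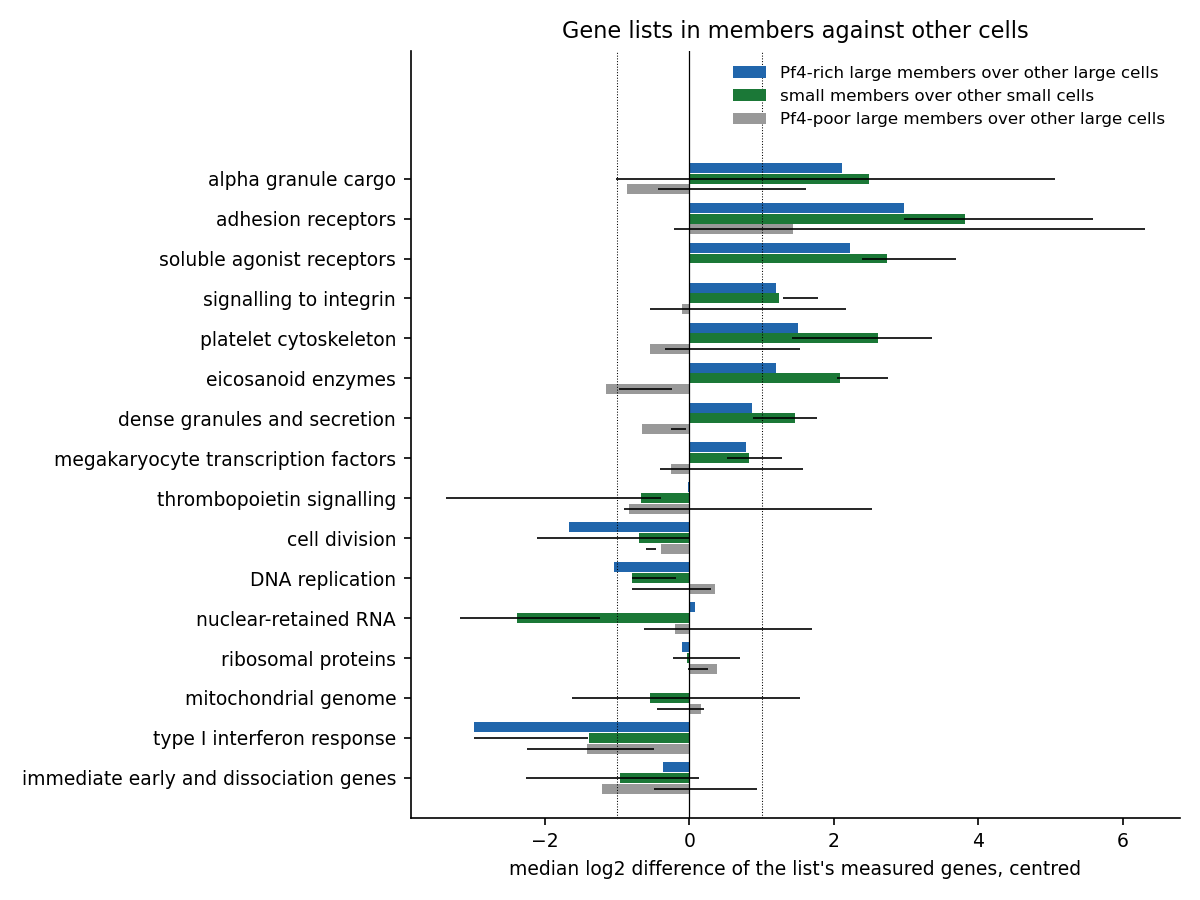
Median log2 difference of each gene list in Pf4-rich large members over other large cells, small members over other small cells, and Pf4-poor large members over other large cells, each centred on its median gene. Black lines give the range over the runs compared and dotted lines mark 2-fold; the Pf4-rich comparison had 1 run and has no line. Adhesion receptors have the highest median of the lists drawn in Pf4-rich large members (2.98) and in small members (3.82), and in Pf4-poor large members their median of 1.43 spans −0.22 to 6.30 over runs.

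The 259 Pf4-poor large members looked different. Against other large cells, 73 of 2986 genes were higher (2.44%) and 273 lower (9.14%) over runs 6 and 7, and 142 and 182 on plain totals. Run 6 held 236 of the 259 cells but 1947 of the 15374 other large cells, so differences between runs enter these counts. In run 6 alone 73 genes were higher and 271 lower. Only 30 and 108 of those were among the genes called over both runs. Adhesion receptors were higher for 1 of 7 measured genes and lower for 1. Their median of 1.43 was −0.22 in the lowest run, 6.30 in the highest and negative (−1.43) without run 7. In run 7, all 14 large members held 257 UMIs of Gp5 and 263 of Clec1b, of which the 3 Pf4-rich cells held 20 and 118. The rest lay in its 11 Pf4-poor cells, so receptor RNA was not low in all Pf4-poor cells. None of 9 alpha granule genes was higher and 1 was lower (median −0.87). Signalling genes were higher for 0 of 13 (median −0.10) and cytoskeletal genes for 2 of 25 with 4 lower (−0.55). Of 12 nucleolar genes of ribosome assembly, 3 were higher and none lower (1.29), with Nolc1, a nucleolar scaffold, at 226 CPM in Pf4-poor large members and 35.0 CPM in other large cells (1.91). Igkc, an immunoglobulin light chain, stood at 45085 CPM in Pf4-poor large members and 10811 CPM in other large cells but changed sign between the runs. S100a8, a neutrophil protein, was lower, at 7878 and 43841 CPM (−2.95). These cells were deep, with a median of 16850 UMIs against 13318 in Pf4-rich large members. Of the 259 cells, 181 had 0.2% or more of their UMIs in the cell division list, against 5620 of 15374 other large cells.

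Large and small members were then compared with each other. All large members against small members gave 238 of 3340 genes higher (7.13%) and 248 lower (7.43%), with adhesion receptors lower for 10 of 21 (median −1.17), cytoskeletal genes lower for 20 of 32 (−1.34) and nuclear-retained RNA higher for 3 of 3 (1.76). The rule bears on that gap, since 5 Pf4 UMIs are a smaller share of a deeper cell. In the closer match, Pf4-rich large members against small members, 258 of 3270 genes were higher (7.89%) and 148 lower (4.53%), with run 6 alone to check the sign, and 360 and 79 on plain totals. Adhesion receptors then had 1 of 22 higher and 2 lower (−0.33), alpha granule cargo 1 of 13 higher and 3 lower (0.0089), agonist receptors 0 of 8 in either direction (−0.44) and signalling genes 0 of 27 (−0.13). Pooled levels of Gp5 (658 and 706 CPM) and Gp1ba (220 and 224 CPM) were alike within counting error in Pf4-rich large members and small members. So were those of Ptgs1 (227 and 237 CPM) and F2r, the thrombin receptor PAR1 (119 and 118 CPM). Other receptors were less alike. Gp9 (log2 difference −0.92), Gp1bb (−0.90), Gp6 (−0.99) and Treml1 (−0.58) were lower in Pf4-rich large members, short of 2-fold, and Itgb3 was higher (0.21). The Pf4-rich levels average unlike cells, since 31 Thbs1-rich cells, described below, held far more receptor RNA than the remaining 188.

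Among the differences were nuclear RNA and parts of the cytoskeleton. Malat1 stood at 18024 CPM (17884 to 18165) in Pf4-rich large members and 3628 CPM in small members (log2 difference 2.17), Neat1 at 679 and 169 CPM (1.81), and Kcnq1ot1, a nuclear antisense RNA, was also higher (2.12). Cytoskeletal genes were lower for 8 of 32 (median −0.53), with Tmsb4x at 36345 and 79348 CPM (−1.26), Myl9 at 585 and 1674 CPM (−1.64) and Tpm4, a tropomyosin, at 953 and 1957 CPM (−1.17) in Pf4-rich large members and in small members. Clec1b was lower too, at 1126 and 2084 CPM (−1.02). Run 6 holds 222 of the 247 Pf4-rich large members but 96 of the 193 small members, and in run 6 alone Tmsb4x (36394 and 65337 CPM, −0.90), Clec1b (1162 and 1992 CPM, −0.83) and Tpm4 (−0.98) fell short of 2-fold, while Malat1 (2.40) and Myl9 (−1.63) did not. Of the genes called over all runs, 197 of the 258 higher and 80 of the 148 lower ones were also called in run 6 alone. Higher genes included Smad7, an inhibitor of TGF-beta signalling, at 134 CPM from 472 UMIs and 8.46 CPM from 2 UMIs (2.83), Runx3, a runt family factor, at 135 CPM from 475 UMIs and 16.9 CPM from 4 UMIs (2.29), and Fosb, an immediate early gene, at 1443 and 262 CPM (2.28). Immediate early genes as a list were higher for 5 of 21 (0.52). Of mitochondrial genes 1 of 11 was higher (0.72), and ribosomal protein genes were called in neither direction (0 of 81, median 0.06).

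Shares of cells with a UMI were compared after each cell was thinned to 1000 UMIs. Gp9 was then found in 32.0% of the 247 Pf4-rich large members and in 46.3% of 95 small members, against 0.631% of other large cells and 1.09% of other small cells, cells that should lack it. The Pf4-poor large members were at 1.54%. Without thinning the shares were 88.3% of Pf4-rich large members, 58.5% of small members, 27.4% of Pf4-poor large members, 5.79% of other large cells and 1.31% of other small cells. Too shallow for thinning were 98 small members and 2356 other small cells. Malat1, thinned, was found in 86.2% of Pf4-rich large members and 63.2% of small members.

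Kit-positive cells with little globin RNA served as a comparison group of progenitors. The 494 such cells had a median of 22494 UMIs, deeper than the members, and 240 of them passed the limit on neutrophil RNA. Neutrophil markers summed to 0.345% of UMIs in Pf4-rich large members and 10.2% in Kit progenitors. The part of those cells in the lower genes was not tested. Against Kit progenitors, large members had 285 of 3264 genes higher (8.73%) and 299 lower (9.16%), or 344 and 238 on plain totals. Pf4-rich large members had 476 of 3407 higher (14.0%) and 437 lower (12.8%), or 666 and 318 on plain totals. Run 6 held 222 of the 247 Pf4-rich large members but only 22 of the 494 Kit progenitors, so these ratios largely set run 6 against other runs. In run 6 alone 593 genes were higher and 366 lower in Pf4-rich large members. Of these, 419 and 212 were among the 476 and 437. In Pf4-rich large members 21 of 22 adhesion receptors were higher (median 3.19), 10 of 14 alpha granule genes were higher and 4 lower (2.42), and 7 of 17 transcription factors were higher (0.89). Zfpm1, the cofactor FOG1 that binds GATA factors, was at 633 CPM in Pf4-rich large members and 28.3 CPM in Kit progenitors (3.76), and Tal1, a factor shared with erythroid cells, at 122 and 16.3 CPM (2.02). Of the 6 measured stem and progenitor genes other than Kit, which chose the comparison cells, 4 were lower and 2 higher. The higher pair was Adgrg1, an adhesion receptor of stem cells, at 362 and 93.5 CPM (1.53), and Slamf1, a surface receptor of the SLAM family, at 95.2 and 4.05 CPM (2.59). Ribosomal protein genes were lower for 20 of 81 (−0.63), while none of 13 cell division genes was called (−0.39).

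Pf4-rich large members were not uniform, and 3 ranges were set apart after the data were seen. A Thbs1-rich range of 31 cells held at least 1000 CPM of Thbs1, which 150 of the 247 cells lacked altogether. A low-mitochondrial range of 28 cells had under 0.5% of UMIs from the mitochondrial genome. The remaining 188 cells made up the third range. These are ranges of a level, not cell types. In all, 10 cells lay between 500 and 2000 CPM of Thbs1 and 11 between 0.25 and 1% mitochondrial UMIs. Run 6 held 27, 22 and 173 of the cells in these ranges.

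The Thbs1-rich cells held the most platelet receptor RNA. Against the remaining Pf4-rich cells, 1088 of 3617 genes were higher (30.1%) and 914 lower (25.3%), 55.3% in either direction, and 804 and 1301 on plain totals, where the median gene was shifted by −0.47. Adhesion receptors were higher for 22 of 22 genes (median 3.40), with 3.44% of UMIs in Thbs1-rich cells and 0.426% in the remaining cells. Alpha granule cargo was higher for 13 of 14 (median 2.58), with 1.82% and 0.314% of UMIs in the same order. That count, median and pair of shares include Thbs1 itself, which set the range, so they are in part fixed by the choice. Gp6, the collagen receptor, was at 915 CPM in Thbs1-rich cells and 23.1 CPM in the remaining cells (5.27). In the same order, Slc6a4, a serotonin transporter, was at 915 and 10.0 CPM (5.99) and Tubb1 at 379 and 3.35 CPM (5.33). Cd226, an adhesion receptor of platelets and lymphocytes, was at 616 and 14.1 CPM (5.16). Cytoskeletal genes were higher for 26 of 32 (2.50). Lower lists included those of ribosomes and cell division. Ribosomal protein genes were lower for 80 of 81 (median −2.39), with 3.27% of UMIs in Thbs1-rich cells and 23.7% in the remaining cells, nucleolar genes for 13 of 13 (−2.65), DNA replication genes for 13 of 14 (−2.05) and cell division genes for 14 of 14 (−2.20). Npm1, a nucleolar chaperone, was at 80.5 and 1602 CPM (−3.69), and Mki67 at 18.1 and 465 CPM. No Thbs1-rich cell, and 77 of the 188 remaining cells, had 0.2% or more of UMIs in the cell division list. Malat1 was at 58151 CPM in Thbs1-rich cells and 10370 CPM in the remaining cells (2.95). Their depth was uneven, with a median of 11316 UMIs and 2399 genes and up to 82258 UMIs, and none passed a limit on another class's markers. The table holds no cell with more than 4999 genes, so cells above that number were not analysed here.

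The remaining 188 cells held 13760 CPM of Pf4 and 984 CPM of Ppbp, 7.15 Ppbp UMIs per 100 of Pf4, against 83.6 in Thbs1-rich cells, 28.0 in low-mitochondrial large cells and 41.7 in small members. Runx3 was highest there, at 174 CPM, with 6.57 CPM in Thbs1-rich cells and 18.0 CPM in low-mitochondrial cells. Vwf was at 619 CPM, with 2888 CPM in Thbs1-rich cells and 149 CPM in low-mitochondrial cells.

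**Figure D4:**
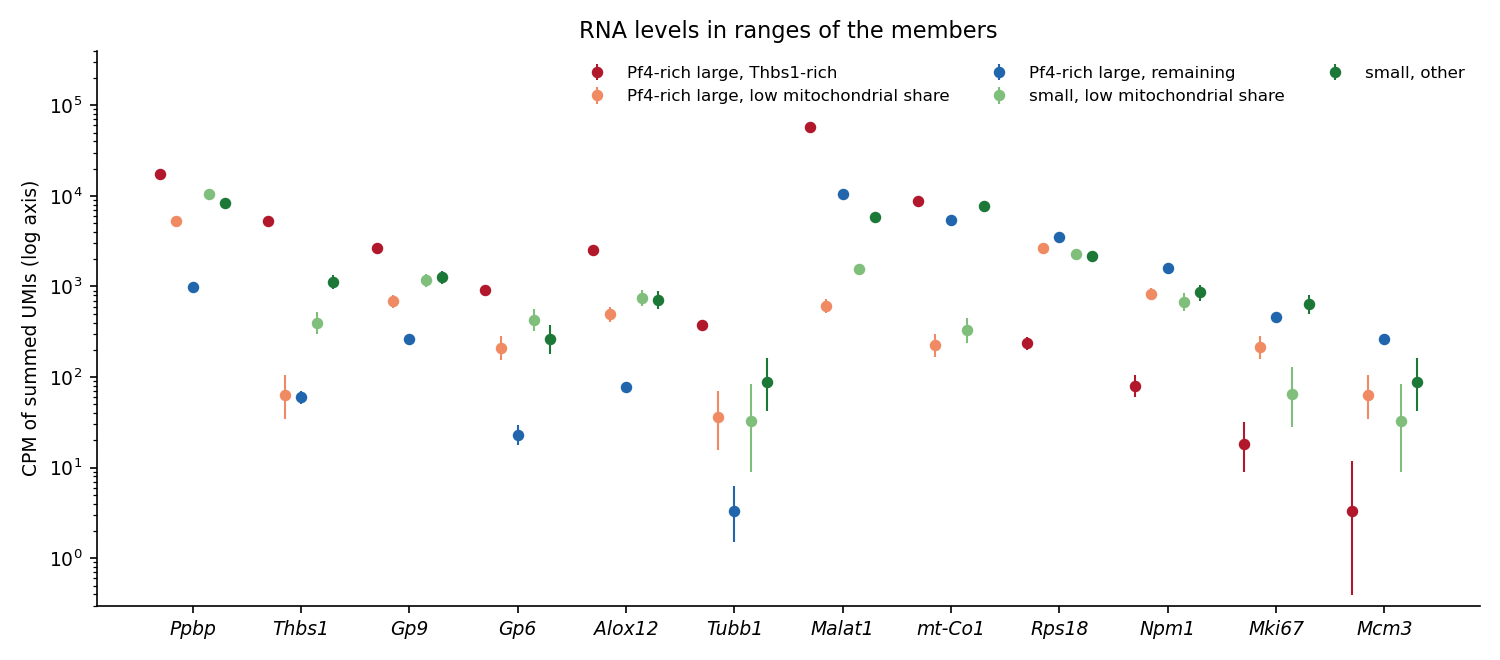
Levels in CPM (log axis) of 12 genes in the Thbs1-rich, low-mitochondrial and remaining Pf4-rich large members and in low-mitochondrial and other small members, with exact Poisson 95% intervals. Malat1 runs from 609 CPM in low-mitochondrial large members to 58151 CPM in Thbs1-rich cells, and Gp6 from 23.1 CPM in the remaining cells to 915 CPM in Thbs1-rich cells.

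Members almost free of mitochondrial RNA occurred in both size classes. In small members, 102 of 193 had under 1% mitochondrial UMIs, 72 of them under 0.25%, while 73 had 2% or more. The low-mitochondrial large members were low in nuclear RNA as well. Nuclear-retained genes were lower for 3 of 3 against the remaining cells (median −3.94), with Malat1 at 609 CPM in low-mitochondrial large members and 10370 CPM in the remaining cells. In that comparison 369 of 3357 genes were higher (11.0%) and 538 lower (16.0%), or 282 and 640 on plain totals. Cytoskeletal genes were higher for 17 of 31 (1.16), with 10.3% of UMIs in low-mitochondrial large members and 4.0% in the remaining cells, and Myl9 was at 1087 and 72.6 CPM (3.86). Ribosomal protein genes were called in neither direction (0 of 81, −0.23). These cells were shallow for large members, with a median of 5501 UMIs and 1754.5 genes, and 1 of the 28 held 88.9% of its UMIs in erythroid markers. Among small members, low-mitochondrial against other small members gave 59 of 1651 genes higher (3.57%) and 116 lower (7.03%) over runs 3, 6 and 7, or 89 and 87 on plain totals. Malat1 was lower there too (−2.09), as were Mpig6b, an inhibitory platelet receptor, at 106 and 316 CPM (−1.66) and Myh9, the heavy chain of platelet myosin, at 562 and 1406 CPM (−1.48), whereas Tesc, a calcium-binding protein, was higher at 1279 and 431 CPM (1.38). Mitochondrial and Malat1 content were thus low together in both size classes, as shares of UMIs and not as amounts per cell.

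**Figure D5:**
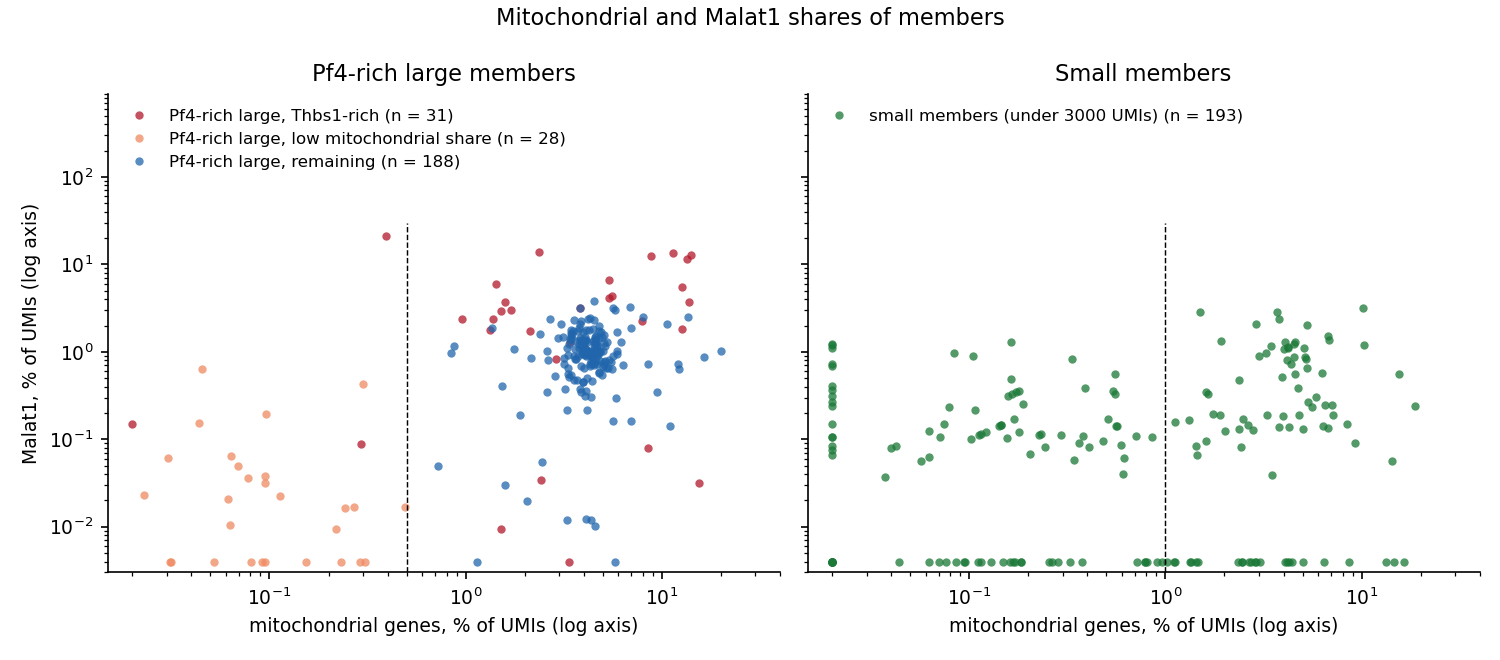
Mitochondrial share against Malat1 share of the UMIs of each Pf4-rich large member (left) and each small member (right), on log axes, with dashed lines at the 0.5% and 1% limits. Cells at 0 are drawn at the lower edge of an axis. Low-mitochondrial large members have a median Malat1 share of 0.0169%, against 0.982% in the remaining Pf4-rich large members.

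The transgene of the study belongs to the endosomal Toll-like receptors, which sense RNA and DNA and signal to interferon genes. Members held almost none of the mouse RNAs of this family. Tlr7 had 0 UMIs in small members and 1 UMI in Pf4-rich large members, against 101 UMIs (15.8 CPM) in other small cells and 2173 UMIs (10.9 CPM) in other large cells. At the summed depth of small members 3 UMIs correspond to 12.7 CPM, so their count of 0 is only weakly set apart from the 15.8 CPM of other small cells. Tlr8 had 1 UMI in each of small, Pf4-rich and Pf4-poor large members, Tlr9 had none in any of them, and Tlr13 had 1, 6 and 3. Unc93b1, which escorts the receptors of this family into endosomes, was at 7.11 CPM in Pf4-rich large members and 91.6 CPM in other large cells (−3.23). Type I interferon response genes summed to 0.144% of UMIs in Pf4-rich large members and 0.216% in other large cells, and to 0.184% in small members and 0.287% in other small cells, while the median cell had 0.164% in small members and 0.131% in other small cells. Of the 36 genes of the list in the table, most were too low to compare: 7 were measured for Pf4-rich large members, with 6 lower, and 11 for small members, with 6 lower and 1 higher. The higher gene was Ifitm3, a membrane protein that blocks virus entry, at 1353 CPM in small members and 402 CPM in other small cells (1.81), while Isg15, a ubiquitin-like modifier, was at 67.6 and 411 CPM (−2.35). Whether these levels differ between transgenic and control animals was not tested, since no cell of the table is tied to a library.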

How the data were processed

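Single cells of dissociated islands were sequenced on the 10x Genomics V3.1 platform, and the deposited table gives UMI counts per gene and cell, made by the authors with Cell Ranger 5.0.0, Seurat 3.1.5 and the mm10 build, per the submitters' processing notes. The counts were used as deposited, with no further filter on cells. Its 24942 cells and 19669 genes hold 248384567 UMIs, and 19412 genes matched a GENCODE M21 entry by name. No column of single samples was left unused (0).

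Members were found by the rule, summed, and given as CPM of the summed UMI counts. Genes were compared by log2 of CPM plus 10, centred on the median gene, at 50 CPM or more in either group and 20 UMIs or more over both, leaving genes below these levels out. No count model was fitted, since the table names no library and counts as 1 sample. Markers past limits (1% of UMIs for neutrophil and most other classes, 5% for erythroid genes) marked members that hold RNA of another class. No doublet caller was run, so doublets may remain. Thinning used 1000 UMIs per cell. Pf4, Ppbp and Itga2b were left out of list summaries, which was decided with the values in view. Promoters are from RefSeq. Some genes are not reported here and were left out of the lists.

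Genes were named by rule: those of the member rule, the 10 highest and 10 lowest called in each comparison, up to 6 members of each list by level plus its called members where 5 or fewer, and Tlr7, Tlr8, Tlr9 and Tlr13, leaving out predicted genes, antigen receptor segments and pseudogenes. Gp1ba and Gp1bb were named as fixed markers. Members and gene lists were chosen with earlier results of these data known. The 2000 CPM Pf4 limit and the Thbs1 and mitochondrial limits were chosen after the data were seen. Alternatives changed the member rule, depth split, centring, pseudocount, minimum level, weighting and runs. Python 3.11.15, numpy 2.4.6, scipy 1.17.1, pandas 2.3.3 and matplotlib 3.10.9 were used, and the comparison was tested on simulated data.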

Additional observations from a re-analysis of the deposited data

Results flagged for a closer look

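Across the 8 barcode runs, run 6 stood far from the others in 5 measures, by the gap of an extreme value to its nearest neighbour relative to the whole range. Chance flags about 1 in 20 groups, and the 5 measures share the same cells, so they are not 5 separate signs. Large members made up 6.75% of the cells of run 6, with 0.803% in the next highest run. Pf4-rich large members made up 3.27% of its cells and Pf4-poor large members 3.48%. A Pf4 UMI was present in 81.8% of its cells, and Pf4 in its non-member cells stood at 323 CPM. Run 6 was the run with the most cells (6787), at a median depth of 5246 UMIs. Whether it comes from bone marrow or spleen, or from a transgenic or a control animal, is not given by the table.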

How the results depend on the processing

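No paired analysis was possible because the table does not tie cells to samples, so replicate numbers reach no value. Large members rested on the rule and on run 6. Their number of 506 became 873 with a Pf4 minimum of 3 UMIs, 277 with a minimum of 10 and 305 with 4 UMIs of Itga2b plus Ppbp, and with a run left out it lay between 48 (without run 6) and 506. Small members, 193, lay between 97 and 189 with a run left out. Counts of genes higher and lower are given in that order. Large members against other large cells (197 and 324) gave 393 and 193 on plain totals, 127 and 195 at a minimum of 100 CPM, 373 and 520 with a Pf4 minimum of 10, 312 and 570 without members holding RNA of another class, and 503 lower at 20 CPM. Small members against other small cells (373 and 499) gave 599 higher at 20 CPM, 326 lower at 100 CPM, and 777 and 1102 in run 6 alone, where no sign in other runs was required. Large against small members (238 and 248) gave 380 lower at 20 CPM, 153 and 144 at 100 CPM, 143 lower with a Pf4 minimum of 10, 128 higher with the split at 5000 UMIs, 394 and 427 without members holding RNA of another class, 508 and 385 in run 6 alone, and 231 to 419 higher with a run left out. Their adhesion receptor median, −1.17, was −0.42 with a Pf4 minimum of 10. Large members against Kit progenitors (285 and 299) gave 185 and 168 at 100 CPM and 175 and 198 with the split at 2000 UMIs. Thinned Gp9 in all large members, 16.4%, was 11.7% at 500 UMIs and 57.1% unthinned, and in small members, 46.3%, 58.5% unthinned. Among the comparisons of Pf4-rich and Pf4-poor cells and of the 3 ranges, all chosen after seeing the data, Pf4-rich large members against other large cells (438 and 627) gave 281 and 374 at 100 CPM, and against small members (258 and 148) 443 and 271 at 20 CPM, 141 and 69 at 100 CPM, 100 higher with the split at 5000 UMIs, 97 lower at a Pf4 limit of 1000 CPM and 313 lower without run 6. Pf4-poor large members against other large cells (73 and 273) gave 171 and 463 with a Pf4 minimum of 10, 229 and 605 without members holding RNA of another class, 160 and 444 at a Pf4 limit of 1000 CPM, 336 and 389 without run 6 and 152 and 433 without run 7. Pf4-rich large members against Kit progenitors (476 and 437) gave 686 lower at 20 CPM, 253 lower at 100 CPM and 307 higher without run 6 (231 of them among the 476), Thbs1-rich cells (1088 higher) 693 at 100 CPM, low-mitochondrial large cells (369 and 538) 661 and 886 at 20 CPM and 198 and 311 at 100 CPM, and low-mitochondrial small members (59 and 116) 141 and 210 with the split at 5000 UMIs and 38 higher without run 6 (12 of them among the 59). Leaving out members with RNA of another class and taking run 6 alone were also chosen after seeing the data. Several settings left fewer runs to check the sign, so the setting alone does not account for their counts. Without members holding RNA of another class, only run 6 was left in every comparison of large members.

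Some values changed sign. With a run left out, Tuba4a spanned −0.10 (without run 6) to 1.36 in large members against Kit progenitors (1.15 in all runs) and −0.064 (without run 6) to 1.73 in Pf4-rich large members against other large cells (1.54), where Smad7 (1.04) spanned −0.049 (without run 6) to 1.16. With members holding RNA of another class left out, S100a8 turned to −1.46 in large against small members (1.75), 0.80 in Thbs1-rich against remaining cells (−1.62) and 0.92 in low-mitochondrial against remaining large cells (−1.47), and Igkc to 0.15 there (−1.40). S100a8 was also 1.35 at a Thbs1 limit of 500 CPM and 2.48 at the higher mitochondrial limit. In Pf4-poor large members the adhesion receptor median, 1.43, was −0.64 at 100 CPM, −0.56 with cells weighted equally, −1.43 without run 7, 3.20 without run 6, −0.35 in run 6 alone and −1.60 at a Pf4 limit of 1000 CPM, and the eicosanoid median, −1.15, was 0.17 with a Pf4 minimum of 10, 0.55 without run 6 and −1.32 without run 7. The stem and progenitor median turned to −0.046 in large against small members with a Pf4 minimum of 10 (2.08), −0.78 in Thbs1-rich cells at 20 CPM (2.30), and 0.15 at 20 CPM and 0.71 at the lower limit in low-mitochondrial large cells (−2.01), and the MHC class II median to −0.60 in large against small members split at 5000 UMIs (2.37). The cause was not tested. Thbs1-rich and low-mitochondrial large cells were too few for a comparison without run 6. Genes at a few UMIs in small members, such as Tubb1, are limited by depth.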
